A study of Mus musculus with 9 samples.

Results

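The type II hair keratins are the basic keratins of the hair shaft, encoded by Krt81 to Krt87 in a single gene cluster on chromosome 15. The rule for this group took the rows of the deposited count table named for these genes, which gave 6 of the 7, out of 54456 genes in the table. Krt85 was not analysed here. The 9 libraries came from mouse skin lesions described as AA-like (alopecia areata is an immune-mediated hair loss) in a study of microneedles, arrays of tiny needles that can release a drug in the skin. Lesions were left untreated (3 libraries), given empty needles, which carried no load (3 libraries), or given loaded needles, which carried IL-2, a T cell growth factor, and CCL22, a chemokine that binds CCR4 (3 libraries). The sources used here give no strain, age, way of inducing the lesions, time of sampling or stage of the hair cycle. Whether each library stands for its own animal is not stated in the labels. The p-values therefore reflect only how these libraries vary, which may be technical.

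Hair keratins are made by the hair matrix and its descendants in growing follicles, and they fill the cells of the shaft before these die and harden. Each filament is built from a type I (acidic) and a type II (basic) keratin in pairs, then cross-linked with cysteine-rich keratin-associated proteins. Among the type II members, Krt81, Krt83 and Krt86 belong to the cortex, the bulk of the shaft, and mutations in their human counterparts cause monilethrix, a beaded hair disorder. Krt87 is a close relative of these whose human counterpart is a pseudogene. Krt82 belongs to the cuticle, the outer layer of the shaft. Krt84 is the most divergent member, and its human counterpart is known mainly from the filiform papillae of the tongue.

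All 6 genes lie on chromosome 15 in mm39, and none overlapped another row of the deposited table. Krt87 runs from 101328919 to 101336685, Krt81 from 101356942 to 101361632, Krt83 from 101383011 to 101389393, Krt84 from 101433461 to 101441255 and Krt82 from 101449649 to 101459102, all on the minus strand. Krt86, from 101371359 to 101377867, is the member on the plus strand. The length the table gives for each of them is its whole span, introns included, and this is the counted length used for levels per length.

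Sequence decides how well reads can be told apart, so the coding stretch in which the 6 genes are most alike is shown first. It is the 60-base window with the fewest differences from Krt81, taken from GENCODE M21 transcripts, and capitals mark bases that differ from Krt81.
Krt81: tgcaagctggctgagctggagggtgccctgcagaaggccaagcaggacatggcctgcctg
Krt86: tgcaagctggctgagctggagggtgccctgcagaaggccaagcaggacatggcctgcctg
Krt83: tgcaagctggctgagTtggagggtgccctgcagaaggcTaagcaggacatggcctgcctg
Krt87: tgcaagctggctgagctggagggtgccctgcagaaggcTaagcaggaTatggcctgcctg
Krt82: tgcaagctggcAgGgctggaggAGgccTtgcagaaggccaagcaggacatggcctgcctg
Krt84: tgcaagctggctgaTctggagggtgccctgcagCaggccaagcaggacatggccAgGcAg
Krt81 and Krt86 are identical over this window, Krt83 and Krt87 differ from Krt81 at 2 bases each, and Krt82 and Krt84 at 5 each.

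The window with the most differences shows the other end of the range, with the same use of capitals.
Krt81: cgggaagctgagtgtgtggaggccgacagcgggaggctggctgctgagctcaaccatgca
Krt86: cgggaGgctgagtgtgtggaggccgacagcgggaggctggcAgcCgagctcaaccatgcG
Krt83: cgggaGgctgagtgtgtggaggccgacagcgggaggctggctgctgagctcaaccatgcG
Krt87: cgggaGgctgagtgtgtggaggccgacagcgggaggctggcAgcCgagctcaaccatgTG
Krt82: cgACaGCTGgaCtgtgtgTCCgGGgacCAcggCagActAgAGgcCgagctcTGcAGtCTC
Krt84: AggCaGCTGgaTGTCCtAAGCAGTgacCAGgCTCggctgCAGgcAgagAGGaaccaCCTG
Here Krt83, Krt86 and Krt87 differ from Krt81 at 2, 4 and 5 of the 60 bases, against 27 for Krt82 and 35 for Krt84.

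Over the whole coding sequence the same split held. Krt81, Krt83, Krt86 and Krt87 shared 88.7% to 93.6% of aligned bases with each other, with a longest identical run of 374 bases between Krt81 and Krt86. Krt82 and Krt84 shared at most 67.9% with any other member and 64.3% with each other. Of all 50-base runs of the transcript, 43.5% in Krt81, 43.3% in Krt86, 23.2% in Krt83 and 17.1% in Krt87 occurred in another member, and none in Krt82 or Krt84. With a predicted gene, Gm49425, counted as well, the share for Krt87 was 36.9%. At 100 bases the shares were 29.0%, 24.6%, 5.43% and 5.42% in the same order. The sources used here do not give the read length or how reads with several matches were treated. The division of counts among Krt81, Krt83, Krt86 and Krt87 is therefore uncertain, whereas the transcripts of Krt82 and Krt84 held no shared run of 50 bases. Introns, which the counted span includes, were not searched. The transcript made up 22.3% of the counted span of Krt82 and 33% of that of Krt84.

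The family was abundant. Levels are given as CPM, that is, as counts per 1 M of a library's total, the total being adjusted by TMM (trimmed mean of M-values). By mean CPM over the 9 libraries, Krt83 ranked 54th of the 26081 genes tested, Krt86 83rd, Krt81 140th and Krt87 243rd, while Krt82 and Krt84 ranked 3131st and 3410th. By mean CPM per kb of counted length the ranks were 152, 210, 208, 485, 2364 and 2170 in the same order. Per kilobase of counted length, which allows genes to be compared, untreated skin held 197 ± 1.29 CPM per kb of Krt83 (mean ± SD, n = 3 libraries), 141 ± 1.20 of Krt81, 141 ± 0.766 of Krt86 and 53.7 ± 2.05 of Krt87. Krt84 and Krt82 stood far below, at 9.61 ± 0.0564 and 8.70 ± 0.0290 CPM per kb. Krt81 and Krt86 did not differ beyond their spread on this scale. Per kilobase of the GENCODE M21 transcript Krt86 stood above Krt81 (468 ± 2.54 against 360 ± 3.05 CPM per kb in untreated skin) and Krt82 above Krt84 (39.0 ± 0.130 against 29.2 ± 0.171), so the order of neighbours depends on the length used.

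**Figure D1:**
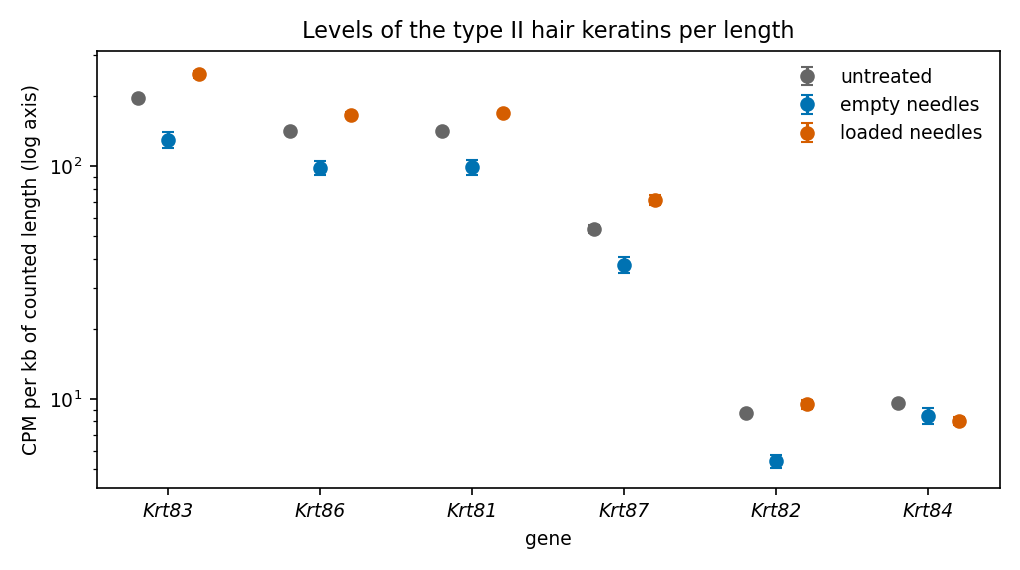
Level of each type II hair keratin in CPM per kb of counted gene length (log axis), as mean and SD over 3 libraries for the untreated (grey), empty-needle (blue) and loaded-needle (orange) groups. Krt83, Krt86, Krt81 and Krt87 lie far above Krt82 and Krt84 in every group, and Krt84 is the gene whose loaded-needle value is the lowest of the 3 groups.

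Libraries held 85962714 to 96740589 counts each. The 6 members took 0.323 ± 0.00607% of them in untreated skin, 0.239 ± 0.0165% with empty needles and 0.433 ± 0.0154% with loaded needles. Between 4585 and 148908 reads stood behind each member in each library, which puts the counting error at 1.48% or less of any value. The spread between libraries was narrowest in untreated skin (0.333% to 3.83% of the mean, by member), where that of Krt82 and Krt84 lay below their counting error of 1.2% and 1.26%. It was widest with empty needles (6.42% to 8.21%), where library 2 was the highest and library 3 the lowest for every member.

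The values by library show 1 order for the cortex genes. Krt83 stood at 1253, 1247 and 1264 CPM in the untreated libraries, at 796, 909 and 786 CPM with empty needles and at 1608, 1633 and 1519 CPM with loaded needles. Krt86 stood at 925, 916 and 917 CPM untreated, at 636, 691 and 599 CPM with empty needles and at 1100.3, 1105 and 1043 CPM with loaded needles. In both genes every loaded-needle library lay above every untreated library, and every untreated library above every empty-needle library. Krt81 followed, with 666, 666 and 656 CPM untreated, 462, 503 and 432 CPM with empty needles and 809, 800.2 and 779 CPM with loaded needles. Krt87 stood at 399, 423 and 429.8 CPM untreated, at 289, 318 and 272 CPM with empty needles and at 577, 571 and 527 CPM with loaded needles. The 3 groups did not overlap in any of the 4.

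The cuticle gene Krt82 kept that order with a smaller step above untreated skin. It stood at 82.4, 82.0 and 82.5 CPM untreated, at 51.4, 54.1 and 47.5 CPM with empty needles and at 93.4, 90.1 and 85.4 CPM with loaded needles. Krt84 did not keep it. Its levels were 75.3, 75.0 and 74.5 CPM untreated, 67.4, 70.2 and 59.98 CPM with empty needles and 62.9, 64.6 and 59.8 CPM with loaded needles. For Krt84 the untreated libraries were the highest, and those of the 2 needle groups overlapped. The order loaded above untreated above empty, with no overlap, was met by 5 of the 6 members and by 4.62% of all tested genes. In a test of all 3 groups together, all 6 members passed (edgeR adjusted p of 1.32e-14 for Krt82 to 0.00011 for Krt84), as did 59.2% of all tested genes.

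**Figure D2:**
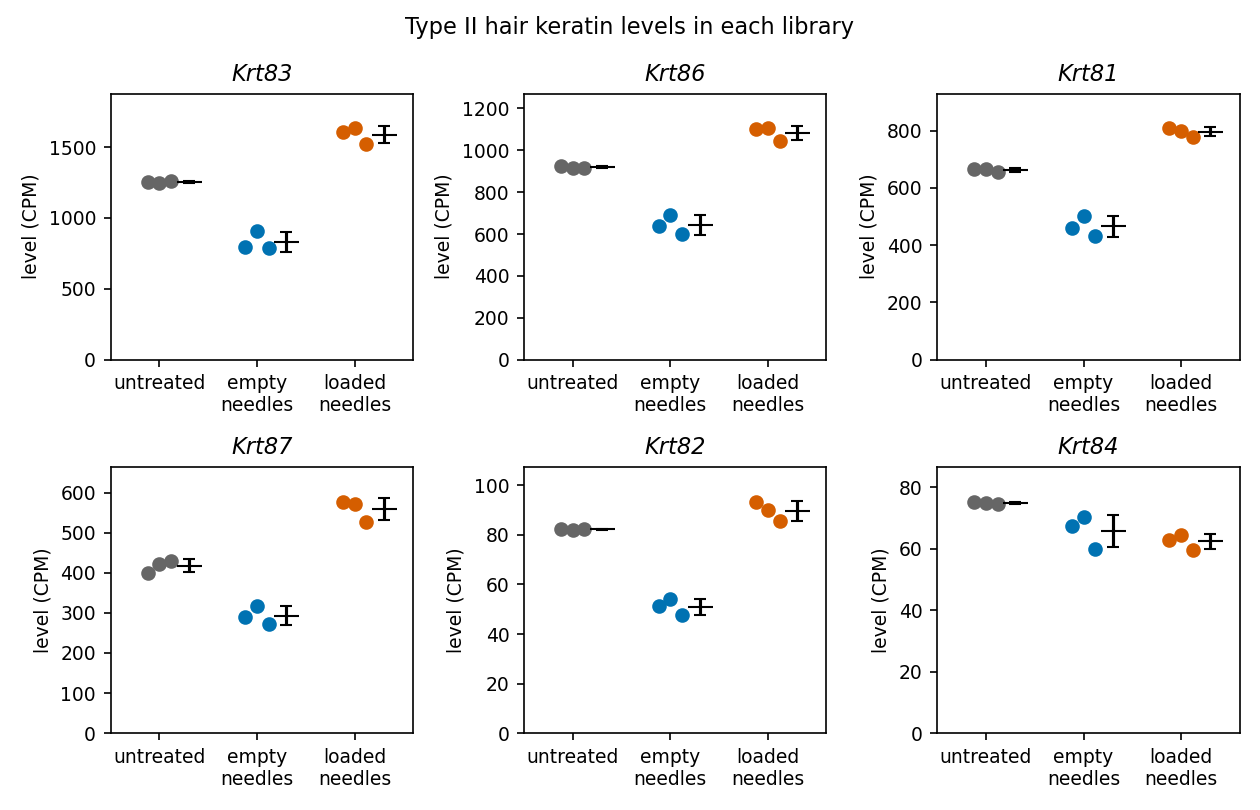
Level (CPM, axis from 0) of each type II hair keratin in the 9 libraries, coloured by group, with the mean and SD of 3 libraries in black. In 5 of the 6 genes the loaded-needle libraries are the highest and the empty-needle libraries the lowest; in Krt84 the untreated libraries are the highest.

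With loaded needles, 5 members were higher than in untreated skin and Krt84 was lower. Krt87 was 1.34-fold higher (log2 fold change 0.42, SE 0.051), Krt83 1.26-fold (0.34, SE 0.045), Krt81 1.20-fold (0.26, SE 0.041) and Krt86 1.18-fold (0.24, SE 0.041), with edgeR adjusted p-values of 1.42e-06 to 2.84e-05. Krt82 rose 1.09-fold (0.12, SE 0.039, edgeR adjusted p = 0.0125), and this call was lost without loaded-needle library 1 (0.093, adjusted p = 0.102). Krt84 was 1.20-fold lower (-0.26, SE 0.045, edgeR adjusted p = 7.08e-05). Over all tested genes, 42.3% were called in this comparison, 19% higher and 23.3% lower, and 52.7% did not overlap between the 2 groups. The median log2 fold change of the 6 members was 0.25, beside -0.014 for all tested genes. Since skin is a mixture of cells, fewer cells of a type and less RNA per cell cannot be told apart in these values.

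Loaded needles were then compared with empty needles, which lack the load. Again 5 members were higher, and here none was called lower. Krt83 and Krt87 were 1.91-fold and 1.90-fold higher (log2 fold changes 0.93, SE 0.045, and 0.93, SE 0.052). Krt82 was 1.76-fold higher (0.81, SE 0.040), Krt81 1.71-fold (0.77, SE 0.041) and Krt86 1.69-fold (0.75, SE 0.041), and the edgeR adjusted p-values of the 5 ran from 1.79e-14 to 3.45e-10. Krt84 differed by -0.078 (SE 0.045, 95% interval -0.17 to 0.010, edgeR adjusted p = 0.184). It was called lower without empty-needle library 3 (-0.17, adjusted p = 0.000408). Of all tested genes 41.4% were called here, 22.9% higher and 18.5% lower, and 50.8% did not overlap. The median log2 fold change was 0.79 for the 6 members and 0.015 for all tested genes.

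With empty needles all 6 members were lower than in untreated skin. Krt82 fell the most, 1.61-fold (log2 fold change -0.69, SE 0.040), followed by Krt83 at 1.51-fold (-0.60, SE 0.045). Krt86, Krt87 and Krt81 were 1.43-fold, 1.42-fold and 1.42-fold lower (-0.52, -0.51 and -0.51), and for these 5 the edgeR adjusted p-values ran from 2.49e-13 to 4e-07. Krt84 was 1.14-fold lower (-0.19, SE 0.045, edgeR adjusted p = 0.00169), a call that was lost without empty-needle library 3 (-0.082, adjusted p = 0.0763) and with scaling by library size alone (-0.082, adjusted p = 0.102). Among all tested genes 48.3% were called, 20.2% higher and 28.1% lower, and 31.1% were lower without overlap, with a median of -0.016 beside -0.51 for the members. The 3 comparisons share their libraries pairwise, so they are not independent of each other.

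The type I hair keratins, the partners of these genes, were read beside them. Of 9 type I genes, 5 were higher and 2 lower with loaded needles than in untreated skin, all 9 were higher with loaded than with empty needles, and all 9 were lower with empty needles than in untreated skin. Krt31 and Krt33a, of the cortex, changed by 0.39 and 0.21 (loaded against untreated), by 0.90 and 0.88 (loaded against empty) and by -0.51 and -0.67 (empty against untreated) on the log2 scale. Krt35, a keratin of the matrix and early shaft, changed by 0.45, 0.88 and -0.43 in the same order. Krt40, of the cuticle, stood at 40.3 ± 0.878 CPM untreated, 21.6 ± 1.22 with empty needles and 36.1 ± 1.38 with loaded needles, with log2 fold changes of -0.16, 0.74 and -0.90. Krt32, another cuticle keratin, named here after its values were seen, changed by -0.31, 0.75 and -1.06. Krt33a has a close paralog, Krt33b, so its count is uncertain.

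**Figure D3:**
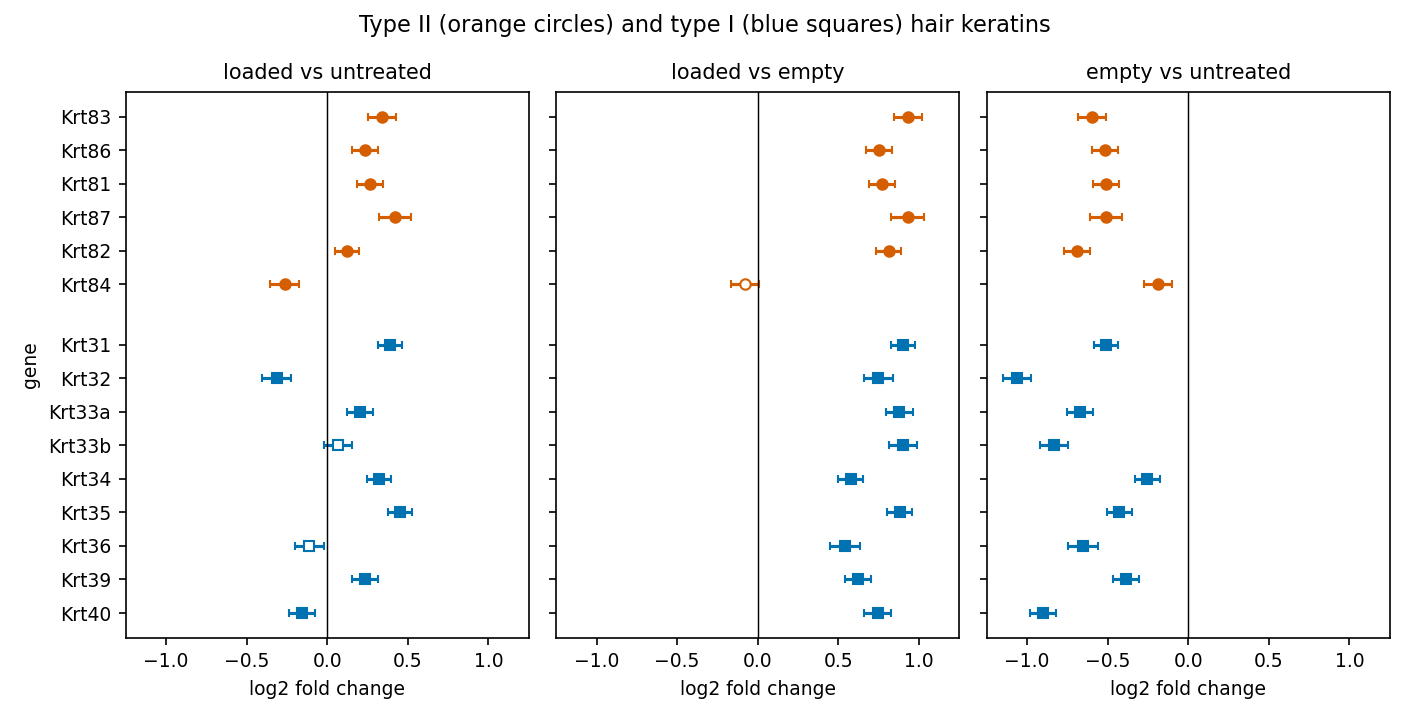
Log2 fold change (point) with its 95% interval (line) for the 6 type II hair keratins (orange circles) and the 9 type I hair keratins (blue squares) in each comparison; open symbols did not pass an adjusted p of 0.05. Between the loaded and empty needles all genes but Krt84 lie to the right of 0.

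Within each library the summed type II counts followed the summed type I counts. The ratio was 1.40, 1.44 and 1.47 in the untreated libraries, 1.46, 1.51 and 1.48 with empty needles and 1.495, 1.49 and 1.49 with loaded needles. The empty-needle values overlapped those of both other groups, whereas every loaded-needle value lay above every untreated value. A second fit scaled each library to its summed type I count, so that a fold change there is a change relative to the partners. With loaded needles against untreated skin, Krt81, Krt83 and Krt86 differed from their partners by 0.027 (95% interval -0.088 to 0.14), 0.10 (-0.015 to 0.22) and -0.0010 (-0.12 to 0.11) on the log2 scale, and none of these passed. Krt82 did not pass either (-0.11, interval -0.23 to 0.00021). Krt87 was higher than its partners (0.18, SE 0.059, edgeR adjusted p = 0.0057), although not without untreated library 1 (0.14, adjusted p = 0.0789). Krt84 was lower (-0.50, SE 0.059, edgeR adjusted p = 2.54e-16). Of the 9 type I genes themselves, 2 were higher and 4 lower in this fit, Krt32 by more than Krt84 (-0.55, edgeR adjusted p = 7.2e-20). On this scale 45% of all tested genes were called, 1.47% higher and 43.5% lower.

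Relative to type I keratins, Krt84 was also lower with loaded than with empty needles (-0.90, SE 0.059, edgeR adjusted p = 1.03e-50), where 86.8% of all tested genes were called, 0.395% higher and 86.4% lower. With empty needles against untreated skin it was higher (0.40, SE 0.059, edgeR adjusted p = 5.25e-11), where 71.4% were called, 68.1% higher and 3.28% lower. In both comparisons Krt84 thus lay on the side of most genes of the skin, while the other 5 members did not pass in either, at -0.067 to 0.11 and -0.11 to 0.074. Of the 9 type I genes, 3 were lower and 0 higher with loaded than with empty needles. With empty needles against untreated skin 3 of the 9 were higher and 3 lower. With the summed hair shaft regulators in place of the type I keratins, those 5 members were called higher in the first and lower in the second of these comparisons. By that yardstick Krt84 remained lower in the first (-0.45, edgeR adjusted p = 1.78e-11), and its call in the second was lost (0.048, edgeR adjusted p = 0.315).

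The makeup of the family was compared within libraries, where no scaling between libraries enters. Krt83 made up 36.8 ± 0.167% of the 6 summed in untreated skin, 35.4 ± 0.666% with empty needles and 38.0 ± 0.258% with loaded needles (mean ± SD, n = 3 libraries). Krt86 and Krt81 followed with 26.9 ± 0.219% and 19.4 ± 0.227% in untreated skin, and Krt87 with 12.2 ± 0.432%. Krt87 held 12.5 ± 0.0936% with empty and 13.4 ± 0.224% with loaded needles. The share of Krt84 was 2.22%, 2.20% and 2.18% in the untreated libraries, 2.93%, 2.76% and 2.73% with empty needles and 1.48%, 1.52% and 1.49% with loaded needles, so that the 3 groups did not overlap. Krt82 held 2.41 ± 0.00846% in untreated skin, against 2.17 ± 0.0554% with empty and 2.15 ± 0.0450% with loaded needles, which overlapped each other.

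For each member and comparison the log2 ratio to the other 5 was set against an exact two-sided permutation test over libraries, in which 3 against 3 cannot give a p below 0.1. Of the 18 tests, the 3 of Krt84 had the largest differences (-0.57 loaded against untreated, -0.93 loaded against empty and 0.36 empty against untreated). Each reached p = 0.1 in the exact test (adjusted p = 0.129), as did most of the 18, all 3 of Krt83 among them. That p therefore does not set Krt84 apart, and none of the 18 passed. A fit across all genes with each library scaled to the other 5 members, chosen after the values were seen, put Krt84 at -0.57, -0.93 and 0.36 relative to them (SE 0.065, 0.066 and 0.065), with edgeR adjusted p-values of 5.86e-17, 2.73e-44 and 8.25e-08. On that scale 52%, 87.6% and 68.8% of all tested genes were called.

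**Figure D4:**
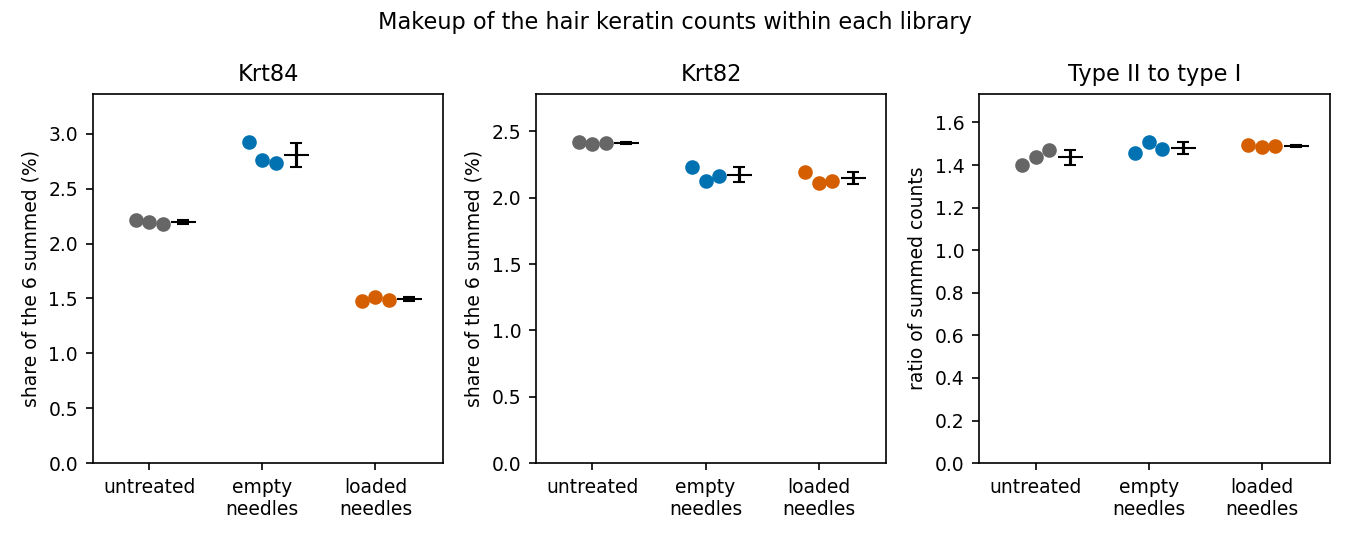
Share of Krt84 and of Krt82 in the summed counts of the 6 type II hair keratins (%), and ratio of summed type II to summed type I hair keratin counts, in each library (points) with mean and SD of 3 libraries (black); axes start at 0. The Krt84 share separates all 3 groups, the Krt82 share separates untreated skin from both needle groups, and the type II to type I ratio lies between 1.40 and 1.51 in all 9 libraries.

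Across the 9 libraries Krt81, Krt82, Krt83, Krt86 and Krt87 rose and fell together. Pearson's r of log2 CPM between pairs of these 5 ran from 0.945 (Krt82 with Krt87) to 0.999 (Krt81 with Krt86), as a description of libraries that fall into 3 groups. Krt84 had r of -0.12 to 0.15 with each of the other 5. The part of the shared sequence of Krt81, Krt83, Krt86 and Krt87 in these values was not tested. Krt82, whose transcript shares no 50-base run with theirs, had r of 0.945 to 0.984 with these 4.

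Promoter sequences were at hand for 2 of the 6 members, Krt82 and Krt84, which moved in opposite directions with loaded needles against untreated skin. The 150 bases before each start are shown from RefSeq's GRCm38.p6 annotation, at chr15:101550660-101550809 for Krt82 and chr15:101532821-101532970 for Krt84, both on the minus strand. Capitals mark the longest run that the 250 bases before the 2 starts have in common.
Krt82: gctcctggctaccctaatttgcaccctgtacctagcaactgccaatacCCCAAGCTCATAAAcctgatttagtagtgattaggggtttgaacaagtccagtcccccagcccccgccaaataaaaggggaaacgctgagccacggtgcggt
Krt84: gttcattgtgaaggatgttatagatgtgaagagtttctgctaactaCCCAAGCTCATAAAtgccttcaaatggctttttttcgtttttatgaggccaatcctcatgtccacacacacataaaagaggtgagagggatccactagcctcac
The shared run of 14 bases begins 102 bases before the start of Krt82 and 104 bases before that of Krt84, and on either strand it occurs in these 2 of the 32851 promoters of the table. It was found after the sequences were seen. The letters TATAAA, the core of a TATA box, occurred on either strand in 12.4% of all promoters over 250 bases. They occurred once in Krt84 (206 bases before the start, outside the stretch shown, reading TTTATA) and not in Krt82. Near the ends of the stretches shown, Krt82 holds aataaa and Krt84 cataaa, similar letters that the exact search did not count. Whether any of these acts as a TATA box was not tested. Neither held CTTTGAA, a LEF1/TCF motif found in 4.46% of all promoters, nor TTNATNNCC, letters taken here as a relaxed HOXC13 site and found in 9.5%. Other forms of these sites were not searched. Both promoters, the shared run included, may therefore hold LEF1/TCF or HOXC13 sites that these letters miss.

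Genes that act upstream of the hair keratins were read from a list of 19 hair shaft regulators. Of these 15 were higher and 2 lower with loaded needles than in untreated skin (median log2 fold change 0.34), 17 were higher and 1 lower with loaded than with empty needles (0.61), and 1 was higher and 14 lower with empty needles than in untreated skin (-0.25). Lef1, which carries Wnt signals to the genes of matrix cells, changed by 0.64, 0.89 and -0.25 in these comparisons, and Msx2, a homeobox factor of the matrix, by 0.43, 0.79 and -0.37. The transcription factor genes Trps1 and Cux1 changed by 0.26, 0.71 and -0.46 and by 0.39, 0.69 and -0.30.

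Products that hold and cross-link the shaft moved less evenly. Of 10 adhesion and cross-linking genes, 6 were higher and 3 lower with loaded than with empty needles, and 4 were higher and 6 lower with empty needles than in untreated skin. The 4 that were higher in the latter were Dsp, Jup, Pkp1 and Liph (0.34, 0.36, 0.35 and 0.11), named here after their values were seen. Dsg4, the desmoglein of the hair shaft, stood at 118 ± 1.04 CPM untreated, 82.7 ± 6.15 with empty and 153 ± 7.72 with loaded needles. S100a3, a calcium-binding protein of the cuticle, changed by 0.28 (loaded against untreated), 0.73 (loaded against empty) and -0.44 (empty against untreated), and Padi3, which converts arginine to citrulline in hair proteins, by 0.43, 0.71 and -0.28. Lpar6, a lipid receptor needed for hair growth, changed by -0.15, 0.87 and -1.02. Of 55 tested keratin-associated protein genes, 52 were higher and none lower with loaded than with empty needles.

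The inner root sheath, which moulds the shaft, had all 9 of its tested genes higher with loaded than with empty needles and all 9 lower with empty needles than in untreated skin. Its leading genes Krt74, Krt71, Krt73 and Krt26 rose by 0.76 to 0.84 between loaded and empty needles. Over the 24 genes of the types I and II hair keratin and inner root sheath lists, 23 were higher with loaded than with empty needles, and the gene not called was Krt84. Of 15 other type II keratins of the chromosome 15 cluster, 2 were higher and 10 lower with loaded than with empty needles. Krt75, of the companion layer and medulla of the follicle, changed by 0.33, 0.80 and -0.47. Krt1, of the upper epidermis, changed by -0.66, -1.08 and 0.42, Krt6a, an injury keratin with a close paralog in Krt6b, by -1.62, -0.55 and -1.07, and Krt78 by -0.69, -0.70 and 0.0098, the last of which did not pass.

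A list of 6 genes known from the tongue, Krt84 itself among them, was also read. Of these 5 were tested and 1 was at 0. Krt36, a type I keratin, stood at 40.9 ± 1.99 CPM untreated, 26.0 ± 1.94 with empty and 37.9 ± 1.22 with loaded needles, and rose by 0.54 between loaded and empty needles, unlike Krt84. Krt13, of internal stratified epithelia, stood at 1.44 ± 0.0282, 1.55 ± 0.0972 and 0.8003 ± 0.149 CPM, and Krt4 at 4.64 ± 0.125, 5.53 ± 0.135 and 4.42 ± 0.184 CPM.

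The genes most like the mean profile of the 6 members over the 9 libraries were Krt72 of the inner root sheath, the forkhead gene Foxe1, the GABA receptor gene Gabrp, the choline transporter gene Slc44a1, the keratin-associated gene Krtap16-1, Lyg2, Stt3b and Cryl1. Their Pearson's r of log2 CPM ran from 0.996 to 0.999, and 4.23% of the 13914 genes considered had r over 0.95. Foxe1 had the profile at low level, with 20.6 ± 0.592 CPM untreated, 12.3 ± 1.31 with empty and 25.1 ± 1.31 with loaded needles. Krt72 stood at 1623 ± 5.96, 1189 ± 78.3 and 1793 ± 64.5 CPM.

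Other tissues of the skin moved with the groups as well, and their part in the keratin values was not tested. The summed level of 8 interfollicular epidermis markers was 40628 to 41893 CPM in untreated skin, 48868 to 50207 with empty and 28727 to 30729 with loaded needles. The genes of this list did not move together, since with empty needles against untreated skin 5 were higher, Krt1 and Krt10 among them, and 3 were lower (Krt14, Krt5 and Ivl, named after their values were seen). For 8 skeletal muscle markers the sum was 7204 to 7430, 8982 to 10512 and 6599 to 7057 CPM. With empty needles against untreated skin 6 of these were higher and 1 was lower (Myh4, -0.93, likewise named). With loaded against empty needles 6 were lower and Myh4 was higher (1.20). For 8 melanocyte markers the sum was 497 to 521, 246 to 273 and 506 to 554 CPM, but with loaded needles against untreated skin 3 were higher and 4 lower. The 10 cell cycle genes summed to 706 to 749, 391 to 411 and 649 to 673 CPM. In the same comparison 3 of these were higher, 3 lower and 4 did not pass. The 6 adipocyte markers summed to 711 to 767, 447 to 493 and 777 to 801 CPM. The 6 dermal papilla markers, of the signalling centre below the matrix, summed to 53.6 to 56.7, 32.4 to 35.3 and 65.5 to 72.2 CPM. The adipocyte and dermal papilla sums thus ran in the order of most of the keratins, but in each list 2 of the 6 genes did not pass between loaded needles and untreated skin. The sum of 8 T cell genes was 40.9 to 43.6 CPM untreated, 30.5 to 32.9 with empty and 26.7 to 28.4 with loaded needles. Between loaded and empty needles 3 of the 8 were lower, 1 was higher (Lck, 0.36, likewise named) and 4 did not pass. For 7 macrophage genes the sum was 236 to 250.1, 210 to 215 and 154 to 168 CPM, and 6 of the 7 were lower with loaded than with empty needles. The 4 injury keratins summed to 3875 to 4183, 2276 to 2540.2 and 2133 to 2164 CPM. The 6 outer root sheath and stem cell genes summed to 783 to 808, 697 to 739 and 690.0 to 706 CPM. With loaded against empty needles 3 injury keratins were lower and 1 was higher (Krt17, 0.22). In that comparison 3 outer root sheath and stem cell genes were higher and 2 lower. No marker of these 10 lists was at 0 in any group. Mitochondrially encoded genes took 4.62 ± 0.0891%, 3.37 ± 0.0544% and 3.83 ± 0.0622% of counts in the same order.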

How the data were processed

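The 9 libraries, 3 per treatment label, were made from polyA RNA of mouse skin. Raw counts for every gene and library stand in the authors' deposited table, for which the submitters' processing notes name HISAT2, featureCounts and the mm39 build. The sources used here give no versions, annotation, strand setting or read length. A gene's length equalled its span for 99.9% of genes, so reads within introns appear to be included.

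Genes were kept with filterByExpr (minimum count 10, minimum total 15), which left 26081. They were fitted with edgeR 4.0.16 in R 4.3.3 (TMM factors from 0.930 to 1.04, robust quasi-likelihood test, 1 coefficient per group, all 9 libraries). Benjamini-Hochberg adjustment ran over all tested genes, and calls were made at an adjusted p under 0.05. The common biological coefficient of variation was 0.039. Standard errors come from the F statistic and 95% intervals from the normal distribution. The steps were tested on simulated counts. Alternatives used other scalings and filters, DESeq2 1.42.0, limma-voom (limma 3.58.1), a fit of the 2 groups alone, a non-robust fit, a block for the replicate number, and each library left out.

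Coding sequences were aligned with MAFFT 7.526 from GENCODE M21 (GRCm38), and promoters come from RefSeq (GRCm38.p6). Coordinates of genes are those of the deposited table. The members and gene lists were chosen with earlier results of these data known. Every member is named, as are up to 4 genes per other list with the smallest 3-group p, and the 8 genes of at least 1 mean CPM, predicted genes and pseudogenes left out, whose log2 CPM (prior count 2) had the highest r with the members' mean profile.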

Additional observations from a re-analysis of the deposited data

How the results depend on the processing

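Counts of members called between groups kept to within 1.5 times under the alternatives, apart from the count called lower between loaded and empty needles. It was 0, and became 1 (Krt84) with upper quartile scaling (log2 fold change -0.13) and with a filter of at least 1 CPM in 3 libraries (-0.12). It also became 1 without empty-needle library 3 (-0.17), and stayed at 0 on leaving out any other library. All 6 members passed the 3-group test under every edgeR alternative with all groups. Library-size scaling moved the median of all genes by 0.13 (loaded against untreated) and 0.10 (empty against untreated), and the share of higher calls from 44.9% to 68.1% and from 41.7% to 57.9%. Upper quartile scaling moved the latter to 53% and, between loaded and empty needles, moved 55.3% to 44.4%. The members relative to type I keratins depended on the yardstick. With the geometric mean of the type I genes, 3, 2 and 3 members were called higher (loaded against untreated, loaded against empty, empty against untreated), and Krt82 turned to 0.0011 and Krt86 to 0.11 in the first, Krt81 to 0.019 and Krt82 to 0.059 in the second and Krt83 to 0.037 in the third. With summed hair shaft regulators, 3 and 5 were called higher in the first and second, and 0 higher and 5 lower in the third. There Krt86 turned to 0.094 in the first, Krt81, Krt82 and Krt86 to 0.40, 0.44 and 0.38 in the second, and Krt81, Krt86 and Krt87 to -0.27, -0.28 and -0.28 in the third, and Krt84 fell short at 0.048. Leaving out each library gave counts relative to type I keratins of 0 to 1 higher and 1 to 2 lower in the first, 0 to 2 higher in the second. Values near 0 changed sign there, with ranges of -0.011 to 0.011 for Krt86 in the first, -0.027 to 0.0055 for Krt82 in the second and -0.034 to 0.015 for Krt83 in the third. The ratio of Krt82 to the other members between loaded and empty needles ranged from -0.036 to 0.0018. Same-numbered libraries of different groups showed no common deviation over all tested genes (r of -0.019 to 0.015 over 9 pairs). Pairs with other numbers gave r of -0.023 to 0.031. A pairing that shows in fewer genes cannot be seen this way. The replicate block changed no count by TMM. Relative to type I keratins the replicate block gave 2 lower in the first (Krt82 at -0.11), 2 higher in the second and 1 lower in the third. Per kilobase of transcript, Krt86 and Krt81 ranked 2 and 3, and Krt82 and Krt84 5 and 6, against 3, 2, 6 and 5 per kilobase of counted length. The coding length from RefSeq proteins was not used here. The cause of these changes was not tested. The counting error of the members was 1.48% or less, and with 3 libraries a group the exact test cannot go below 0.1.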
